A study of Mus musculus with 12 samples.

Results

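SOX2 regions that lay deep inside very long genes were taken from a map of SOX2 binding in mouse embryonic stem cells. A region was kept when its midpoint fell inside a protein-coding gene span longer than 200 kb and more than 1 kb from the end of any protein-coding gene. Of 10351 distinct regions in asynchronous cells, 1718 met this rule (16.6%, exact 95% interval 15.9 to 17.3%). They lay in 676 of the 990 protein-coding genes of that length, which are 4.52% of the 21887 protein-coding genes of the annotation. Gene spans came from RefSeq on GRCm38.p6, the assembly that mm10 names, and all positions are on that build.

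The cells were E14, an established mouse embryonic stem cell line, grown with 10% serum and LIF, a cytokine that maintains pluripotency. The medium also held inhibitors of GSK3 (CHIR99021, 3 μM) and of the MEK kinases (PD184352, 0.8 μM). The asynchronous group had 3 SOX2 ChIP-seq libraries and 3 input libraries from cycling cells. The ChIP antibody was Sox2 Y-17, on formaldehyde-fixed, sonicated chromatin. The mitotic group had the same number of each, from cells held overnight in nocodazole, a microtubule poison, then fixed and sorted for H3S10p, a histone mark of condensed chromosomes. Replicates were pooled before calling, so each condition is 1 list. No region therefore has a value per replicate, a height or a score, no test between conditions was possible, and the depth is unknown. Every interval below covers counting error only and treats regions as independent.

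SOX2 is an HMG box transcription factor that bends DNA at short A- and T-rich sites. In pluripotent cells it often binds beside the POU factor OCT4 on a composite site. Much of its binding lies in enhancers, which can sit in introns. Very long genes consist mostly of intron, and many encode proteins of neurons, such as synaptic adhesion molecules and ion channels. Others encode transcription factors with wide regulatory surroundings. A region inside a gene need not act on that gene. Exons and introns were not separated here.

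A few of the regions overlapped windows around transcription starts inside the host, and there the DNA could be read. The RefSeq promoter windows used here hold 300 bases each, from 250 before to 50 after a start, and cover 744 of the 990 genes. Of 32851 windows, 512 overlapped an asynchronous region (1.56%). Of 1337 windows whose start lay inside a very long gene and over 1 kb from any gene end, 23 did (1.72%, exact 95% interval 1.09 to 2.57%), a share near that of all windows. These 23 windows were reached by 22 regions, or 1.28% of the 1718. For 11 of these regions the start belonged to the host itself, and for the other 11 to another gene within it. An overlap with a window need not reach the start. In 9 of the 11 hosts with a start of their own, the start itself lay inside the region.

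The sequences below are those where the region's midpoint lay within 100 bp of a host's own inner start. They show the part of the promoter window that the region covered, up to 30 bases past the start, written 5′ to 3′ on the gene's strand. Capitals mark CATTGT and CTTTGT, cores of SOX sites, and ATGCAAA, part of the octamer bound by OCT4, on either strand. The bases are those of the RefSeq table on GRCm38.p6.
Hdac9, chr12:34528860-34529039, minus strand: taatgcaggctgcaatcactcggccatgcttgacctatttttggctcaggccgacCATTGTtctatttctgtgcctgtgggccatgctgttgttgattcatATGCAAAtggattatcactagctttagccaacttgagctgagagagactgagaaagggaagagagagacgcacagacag
Bmpr1b, chr3:141931559-141931818, minus strand: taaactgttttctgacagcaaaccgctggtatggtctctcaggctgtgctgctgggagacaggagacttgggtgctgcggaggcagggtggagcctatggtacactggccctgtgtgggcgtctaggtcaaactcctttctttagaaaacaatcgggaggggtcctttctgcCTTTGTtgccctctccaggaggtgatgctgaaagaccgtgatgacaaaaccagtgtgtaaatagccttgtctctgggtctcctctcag
Magi1, chr6:93912934-93913139, minus strand: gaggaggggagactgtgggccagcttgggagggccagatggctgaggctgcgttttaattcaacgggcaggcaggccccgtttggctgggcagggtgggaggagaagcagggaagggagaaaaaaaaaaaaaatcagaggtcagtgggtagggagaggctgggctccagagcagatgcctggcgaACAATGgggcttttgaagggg
Magi2, chr5:19907293-19907547, plus strand: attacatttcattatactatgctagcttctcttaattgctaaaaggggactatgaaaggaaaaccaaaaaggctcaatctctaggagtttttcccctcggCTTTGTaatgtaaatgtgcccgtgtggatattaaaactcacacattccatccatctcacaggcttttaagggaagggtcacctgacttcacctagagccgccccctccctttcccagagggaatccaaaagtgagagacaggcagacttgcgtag
Cntnap2, chr6:47244173-47244425, plus strand: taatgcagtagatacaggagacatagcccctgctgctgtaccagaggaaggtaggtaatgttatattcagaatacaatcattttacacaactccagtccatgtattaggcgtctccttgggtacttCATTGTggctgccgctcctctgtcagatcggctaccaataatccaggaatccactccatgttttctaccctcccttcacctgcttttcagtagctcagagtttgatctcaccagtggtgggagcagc
Ank2, chr3:126998423-126998661, minus strand: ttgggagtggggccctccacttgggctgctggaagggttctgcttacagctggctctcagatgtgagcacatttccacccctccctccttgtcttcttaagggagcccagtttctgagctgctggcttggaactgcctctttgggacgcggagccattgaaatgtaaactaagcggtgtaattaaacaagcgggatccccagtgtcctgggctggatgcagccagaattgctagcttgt
St7, chr6:17749125-17749199, plus strand: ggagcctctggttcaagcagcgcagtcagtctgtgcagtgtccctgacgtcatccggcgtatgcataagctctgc

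Hdac9, a class IIa histone deacetylase, had a SOX core and an octamer part in the 180 bases shown. The midpoint of its region was 7 bp from a start that lay 388 kb inside the gene. Bmpr1b, a type I BMP receptor, had a region of 448 bp over 2 annotated starts, with the midpoint 6 bp from the nearer one, 238 kb inside the gene, and 1 CTTTGT. Magi1 and Magi2 encode related scaffold proteins of cell junctions and synapses. Their regions were centred 23 and 95 bp from starts that lay 371 and 688 kb inside. The Magi1 sequence held CATTGT on the other strand, and the Magi2 sequence held CTTTGT. At Cntnap2, a neurexin-like adhesion protein and the third longest gene, the start was 2184 kb from the far 5′ end, and the sequence held CATTGT. Ank2, an ankyrin that anchors membrane proteins, and St7 had none of these letters in the stretch shown.

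Regions also covered at least 200 bases of windows at inner starts of Hdac4 (249 bases), Shroom3, an actin-binding protein of epithelial folding (262 bases), and Filip1, a filamin-binding protein (300 bases). At Sash1 the overlap was 101 bases. Among the windows of other genes were those of the antisense transcript Fhitos in Fhit, Bend5 in Agbl4, 3300002A11Rik in Foxn3 and Gm4651 in Mical3.

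Whole windows were then searched for the same letters. Of the 23 windows overlapped by a region inside a very long gene, 11 held either SOX core (47.8%), against 53.9% of the 512 windows overlapped by any asynchronous region and 28.6% of all 32851. At inner starts of very long genes that no region overlapped, the share was 33.6% of 1314. The overlapping Bmpr1b windows share the same CTTTGT and are each counted among the 11. The octamer part was in 4 of the 23 windows (17.4%), 7.42% of the 512, 6.39% of the 1314 and 4.63% of all windows. A match in a window can lie outside the region. The Magi2 window held a composite arrangement, CTTTGTNATGNAAA, in which a SOX core is followed after 1 base by an octamer-like part. This arrangement, searched on both strands also as CATTGTNATGNAAA and chosen after the Magi2 sequence was seen, was in 15 of all windows (0.0457%), of which 7 were among the 512 overlapped ones (1.37%). These shares are descriptions of matching letters.

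Most of the very long genes held at least 1 region. Of the 990 genes, 676 had one (68.3%, exact 95% interval 65.3 to 71.2%), beside 13.2% of all protein-coding genes. The share was higher in longer classes of genes, from 5.78% of genes up to 50 kb to 42.2% of those of 100 to 200 kb. A single region was found in 265 of the 676 hosts and 2 in 155. At least 3 were found in 256, which together held 1146 of the 1718 regions (66.7%). The 83 genes with 5 or more held 557 regions (32.4%). The median was 1 region per gene, and the most was 15. The 314 genes without a region were shorter, with a median of 291 kb, against 347 kb for the hosts.

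**Figure D1:**
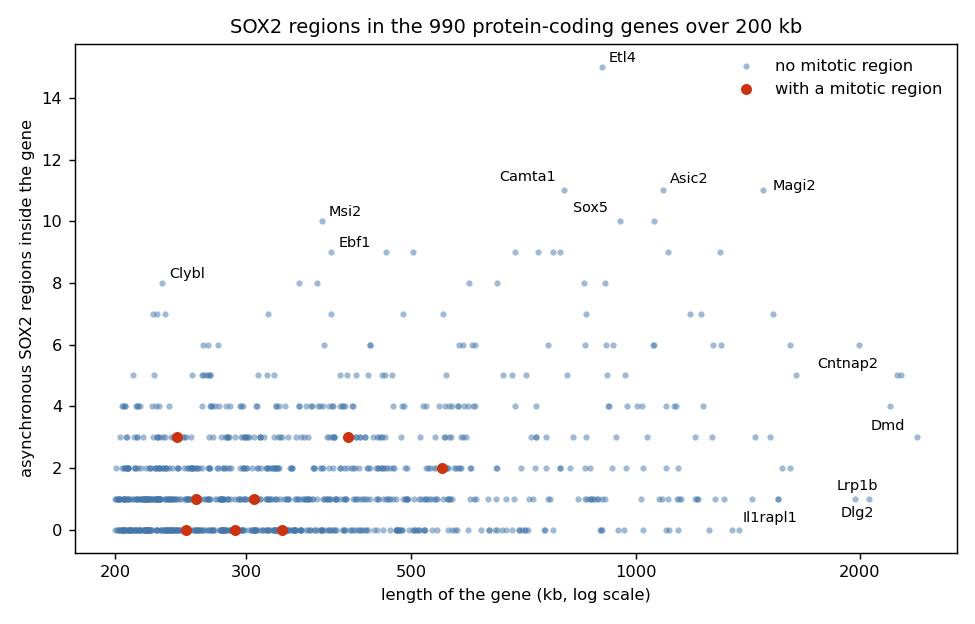
Number of asynchronous SOX2 regions inside each of the 990 protein-coding genes over 200 kb (vertical) against gene length in kb on a log scale (horizontal). Each point is 1 gene, red where the gene also held a mitotic region. Etl4 reached 15 regions, while Lrp1b (2058 kb) and Dlg2 (1973 kb) had 1 each.

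Region density was lower in the longer classes of genes. Over all 990 genes there were 0.412 regions per 100 kb (95% Poisson interval 0.393 to 0.432) in the 417 Mb that lay more than 1 kb from any gene end. Genes of 200 to 300 kb had 0.532 per 100 kb (0.488 to 0.578), those of 300 to 500 kb 0.448 (0.412 to 0.487) and those of 500 to 1000 kb 0.378 (0.343 to 0.416). The 59 genes over 1000 kb had 0.246 (0.213 to 0.283), although 52 of them (88.1%) held a region. Genes up to 50 kb, of 50 to 100 kb and of 100 to 200 kb had 0.498, 0.490 and 0.511 per 100 kb. Outside genes, over 1 kb from any end, the density was 0.308 (0.299 to 0.316). Genes over 1000 kb thus lay below sequence outside genes, and those of 200 to 300 kb were close to shorter genes. Without the X chromosome the first and last of the 4 long classes had 0.552 and 0.260 per 100 kb. The value outside genes includes X and was not recomputed without it. Assembly gaps were not taken out of these lengths. Across the 990 genes, length and number of regions had a Spearman correlation of 0.25, and length and density one of -0.065, with no p given.

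**Figure D2:**
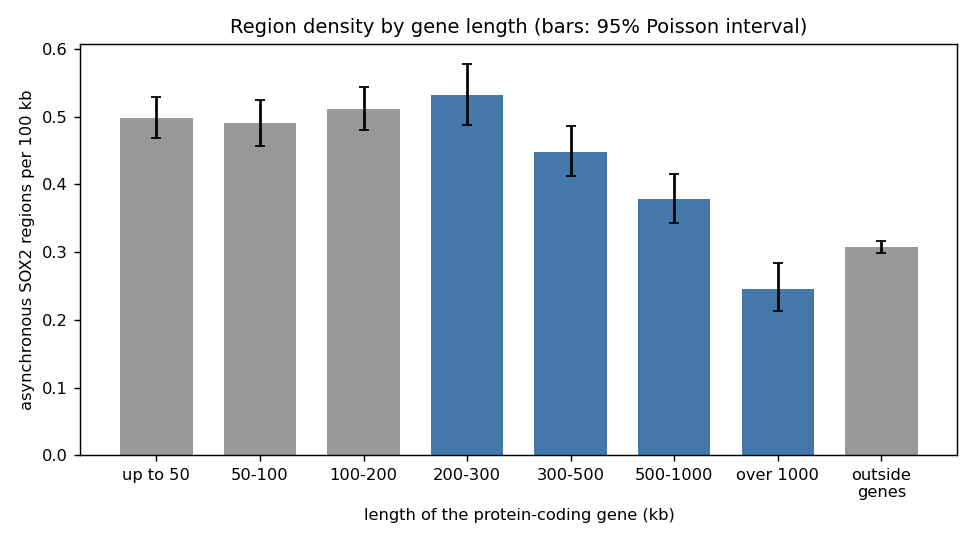
Asynchronous SOX2 regions per 100 kb (bars from 0, with 95% Poisson intervals) by length of the protein-coding gene in kb, and outside genes. The 4 classes over 200 kb, in blue, go from 0.532 down to 0.246 regions per 100 kb.

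X-linked hosts were sparse. The 45 very long genes on X held 16 regions, or 0.0803 per 100 kb (0.0459 to 0.130), and 12 of the 45 (26.7%) had one. On autosomes the value was 0.429 per 100 kb and 70.3% of 945 genes. By chromosome it ran from 0.257 on chromosome 3 to 0.597 on chromosome 11. No density for the rest of X is given here, so the low value is not shown to be particular to these hosts.

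Etl4, the sickle tail gene, held the most regions of any gene. Its 900 kb span (chromosome 2, 19910207 to 20810535) had 15, or 1.67 per 100 kb, from 185 to 689 bp wide. Only 2 lay on the 5′ side of the gene's midpoint. Of the others, 9 lay within 85.2 kb, from 20653111 to 20738273, the most found within 100 kb of one another in any host. The widest, at 20654725 to 20655413, had a neighbour 1.17 kb away.

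Camta1, a calmodulin-binding transcription activator, Asic2, an acid-sensing ion channel, and Magi2 held 11 regions each. In Camta1 they were 183 to 398 bp wide and 8 of the 11 lay on the 3′ side of the midpoint. In Magi2 they were spread over 1124 kb, with no 2 closer than 14.7 kb. Msi2, an RNA-binding protein of stem cells, held 10 in only 379 kb, of which 9 lay on the 5′ side of the midpoint. The widest of these, 698 bp, was at chromosome 11, 88689827 to 88690524, 28.1 kb from the 5′ end. Sox5, an HMG box factor of the SOX family, also held 10. They kept to a stretch of 257 kb in the middle of its 954 kb, and 2 of them were both 779 bp wide.

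Hosts with 9 regions were Ebf1, a transcription factor of B cells and neurons, Pakap, Dock1, an activator of Rac, the receptor phosphatases Ptprg and Ptprn2, the teneurins Tenm4 and Tenm3, which are adhesion proteins, Arhgap26, an inactivator of small GTPases, and Auts2, a neurodevelopmental chromatin cofactor. Clybl, a mitochondrial enzyme, Gse1 and the forkhead factors Foxn3 and Foxp1 had 8 each. In Ebf1, 7 of 9 lay on the 5′ side of the midpoint, and the region nearest the 5′ end was 3.74 kb from it. In Pakap, 1 of 9 did, and in Tenm3 2 of 9.

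**Figure D3:**
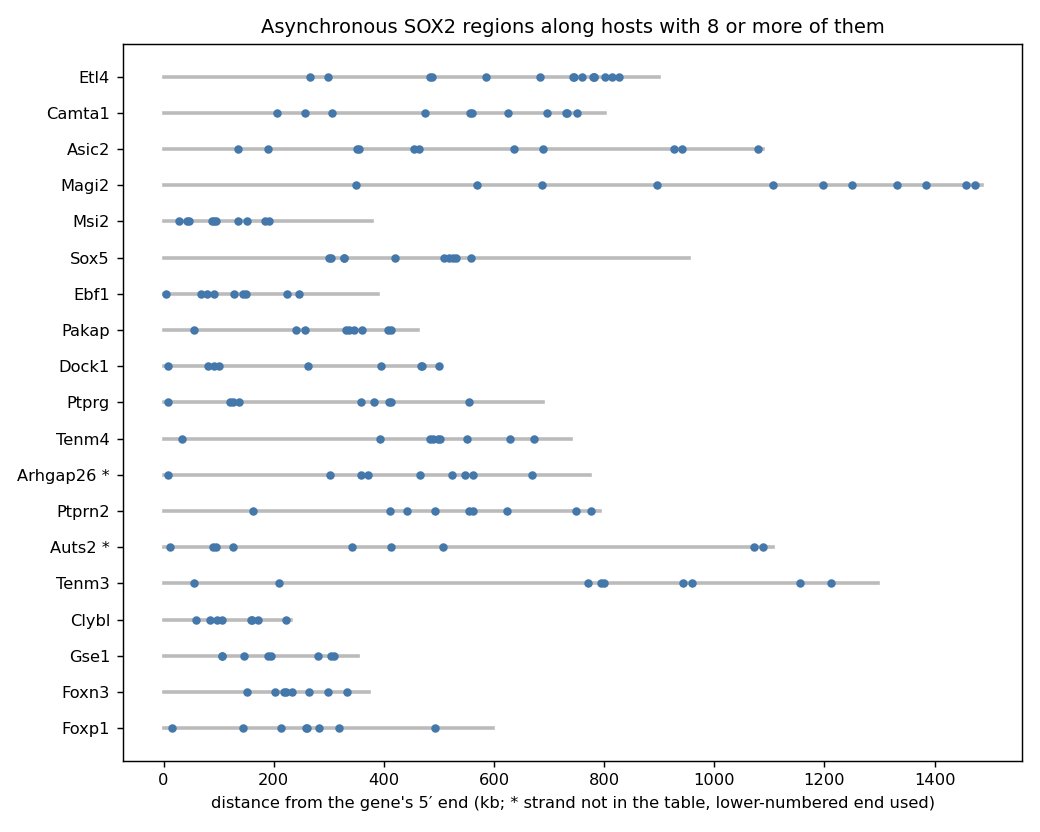
Positions of the asynchronous SOX2 regions (points) along hosts with 8 or more of them (grey lines), from Etl4 with 15 to Foxp1 with 8; other hosts with 8, such as Nav2 and Dpp6, are not drawn, and distances are in kb from each gene's 5′ end; for genes with an asterisk the strand was not in the promoter table and the lower-numbered end is at 0. Regions bunch in the last part of Etl4, the 5′ side of Msi2 and the middle of Sox5, and are spread out in Magi2.

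The densest hosts were not the longest. Clybl had 3.49 regions per 100 kb, all 8 within 164 kb. Slc10a7, a membrane transporter of the SLC10 family, had 3.14 per 100 kb. Tead1, a DNA-binding partner of YAP, had 3.11 and Tns3, a focal adhesion protein, 3.03. These 3 held 7 regions each in spans of 225 to 233 kb. In Tead1 the regions at chromosome 7, 112684941 to 112685262, 112688412 to 112688949 and 112690995 to 112691627 began within 12 kb of an end of the gene. In Tns3, 6 of 7 lay within 73.1 kb. Msi2 (2.65), Epb41l4a (2.39), Ebf1 (2.32), Ppp1r9a, a scaffold of dendritic spines (2.304), Gse1 (2.28) and Hdac4, a class IIa histone deacetylase (2.26), followed. Over all 990 genes the median was 0.349 per 100 kb (interquartile range 0 to 0.707), 129 genes exceeded 1 and 14 exceeded 2.

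The longest genes held regions at low density. Genes over 1000 kb had a median of 3 regions each, against 1 over all 990 genes. Dmd, the muscular dystrophy gene dystrophin on X and the longest at 2390 kb, had 3 regions, or 0.126 per 100 kb. They lay at 83050280 to 83050558, 84443094 to 84443335 and 85077579 to 85078068. Ptprd, a receptor phosphatase, and Cntnap2 had 5 each (0.220 and 0.223 per 100 kb). Lsamp, an adhesion protein, had 4 (0.183). Lrp1b, a lipoprotein receptor relative, and Dlg2, a postsynaptic scaffold, had 1 each (0.0486 and 0.0507). Macrod2 and Fhit, both at fragile sites, had 6 each, Csmd1 had 5 and Nrxn3 had 2. No region was found in 7 of the 59 genes over 1000 kb: Il1rapl1, Naaladl2, Lingo2, Galntl6, Nrg3, Dcc and Cntn4. For Il1rapl1 a count of 0 allows up to 0.218 per 100 kb by the limit of 3 counts, and for Cntn4 up to 0.294.

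Regions were found along the whole length of the hosts. The strand was known for 744 of the genes, with 1319 pairs of a region and a host. The median position was 54.8% of the way from the 5′ to the 3′ end, and 592 (44.9%) lay on the 5′ side of the midpoint. With each host cut into 10 equal parts from the 5′ end, the first had 0.382 regions per 100 kb (0.316 to 0.456), the third 0.341 (0.280 to 0.411), the eighth 0.482 (0.409 to 0.564) and the last 0.461 (0.389 to 0.542). From 1 to 10 kb from the 5′ end the density was 0.450 (0.304 to 0.643), close to the 0.433 found from 100 to 200 kb. The last parts thus had somewhat more than the first ones, with intervals that in part overlap. No excess was detectable from 1 to 10 kb from the 5′ end. The rule leaves out the first 1 kb, so an excess there could not be seen.

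The regions lay a median of 89.3 kb from the nearest gene end (interquartile range 44.9 to 152 kb), and 742 (43.2%) lay over 100 kb from one. Over all 10351 regions the median was 25.5 kb and the share 21.3%. The rule in part sets this difference, since a region inside a gene up to 200 kb cannot lie over 100 kb from an end. The deepest, in Cntnap2 at chromosome 6, 46188169 to 46188493, was 1113 kb from any. Another of these regions lay within 10 kb of 304 of the 1718 (17.7%), and within 1 kb of 50 (2.91%). The closest pairs were in Fndc3b at 137 bp, in Hecw1, a ubiquitin ligase, at 158 bp, and in Dlgap1, a postsynaptic scaffold, at 169 bp. In 7 hosts, 6 or more regions fell within 100 kb: Etl4, Tns3, Pakap, Ebf1, Clybl, Msi2 and Foxn3. A non-coding gene span also held 121 of the regions (7.04%), for 116 of them a long non-coding RNA, and 13 lay in a shorter protein-coding gene as well. One, at chromosome 8, 120538262 to 120538558 in Gse1, ended 137 bp before Mir7687, the closest any of these regions came to a microRNA hairpin matched inside the hosts. For the counts of spacing and of non-coding spans, no share over all regions is given here.

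In width the regions resembled the rest of the list. Their median was 295 bp (interquartile range 227 to 392 bp), against 280 bp for regions inside genes up to 200 kb, 296 bp outside genes, 274 bp at gene ends and 289 bp for all. Over 500 bp wide were 164 (9.55%), against 8.76% of all. The files hold no height, so width is described only as extent and is no measure of binding strength. The widest, 965 bp, lay in Atp8a1, a phospholipid flippase. It was followed by regions in Grin2b, an NMDA receptor subunit (chromosome 6, 136113550 to 136114436, 887 bp), Erc2, a protein of the presynaptic active zone (chromosome 14, 28238398 to 28239261, 864 bp), and Btbd11 (chromosome 10, 85539413 to 85540244, 832 bp). Next came Adam12, a metalloprotease (793 bp), the pair in Sox5, one in Tns3 (762 bp), one in Ppm1h, a phosphatase (751 bp), and one in Dnah7a, an axonemal dynein (746 bp). Of these regions, 26 (1.51%) were listed more than once with the same coordinates, as were 1.65% of all.

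Among very long genes grouped by role, region density ran from 0.228 to 0.669 per 100 kb. In 9 lists, known long genes were grouped by role, and 269 of the 990 genes were in at least one of them. The lists do not hold every gene of a role. They were chosen with earlier results of these data known, so their values describe the listed genes only. The 46 listed transcription factors had 0.669 regions per 100 kb (0.558 to 0.796), a median of 2 per gene, and 38 held one (82.6%). The 17 chromatin and RNA regulators had 0.626 (0.480 to 0.802), a median of 3, and all 17 held one. Over all 990 genes the value was 0.412, the median 1 and the share 68.3%. The genes of the 2 lists had median lengths of 397 and 360 kb, and all genes of 300 to 500 kb had 0.448 per 100 kb. No test of a list was made.

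Among the listed transcription factors, Sox5, Ebf1, Foxp1, Tead1, Prdm16 and Tshz2 led. Prdm16, a regulator of brown fat and stem cells, had 7 regions and Tshz2, a zinc finger factor, had 6. Ppargc1a, Foxp2 and Zfpm2 were the longest listed ones with none. Camta1 with 11 regions and Foxn3 with 8 were not in this list. Of the chromatin and RNA regulators, Msi2, Auts2, Rbfox1, a splicing factor with 7, Hdac4 and the RNA-binding Rbms3 with 6 each, and Arid1b, part of BAF chromatin remodellers, with 4, led.

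Signalling enzymes had 0.482 per 100 kb (0.393 to 0.584), with 32 of 40 holding a region. Dock1, Ptprg and Ptprn2 led, followed by the kinase Mast4 and the phosphodiesterase Pde4d with 6 each and Dock2 with 5, while Dgkb, Pde4b and Vav3 had none. Cytoskeletal genes had 0.502 (0.397 to 0.627), with 21 of 27 holding one. Nav2 had 8, Tns3, Myo3b and Utrn 7 each, Ank2 6 and Nav1 5, and Nav3, Diaph2 and Diaph3 had none.

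The lists of synaptic adhesion, cadherin, axon guidance, channel and fragile site genes had densities below the 0.412 of all 990 genes. Among their shares of genes with a region, only that of axon guidance genes lay below the 68.3% of all 990. These lists have longer median lengths than the 325 kb of all 990 genes, and longer classes had lower densities and higher shares. The class values below go by median length and do not match the lengths within a list. Synaptic adhesion genes had 0.281 per 100 kb (0.228 to 0.342), with 29 of 37 holding a region (78.4%), and a median length of 911 kb. All genes of 500 to 1000 kb had 0.378. The list also holds genes over 1000 kb, such as Tenm3 and Cntn5, a class with 0.246. The teneurins Tenm4 and Tenm3 had 9 each, Cntn5 had 6, Adgrl3 and Ntm had 5 each, and Il1rapl1, Cntn4 and Cadm2 had none. Cadherins had 0.256 (0.162 to 0.385), with 10 of 13 holding one (76.9%) and a median length of 592 kb. Cdh13 had 7, Cdh23, Cdh4 and Fat3 3 each, Cdh18 2 and Cdh20 1, while Pcdh11x, Pcdh7 and Cdh2 were the 3 of 13 without one. Axon guidance genes had 0.228 (0.155 to 0.324), with 13 of 21 holding one (61.9%) and a median length of 479 kb. Slit3, a ligand of Robo receptors, had 6, Sema6d and Robo1 4 each, Ephb1 and Plxna4 3 each and Unc5c 2. Among the genes placed in this list, Nrg3, Dcc and Unc5d were the longest without. Channels and transmitter receptors had 0.309 (0.246 to 0.384), with 37 of 49 holding one (75.5%) and a median length of 460 kb. All genes of 300 to 500 kb had 0.448. The list also holds genes of 500 to 1000 kb, such as Dpp6 and Grm7, a class with 0.378. Dpp6, a potassium channel subunit, had 8, Grid1 6, Kcnma1 5, Grik3 and Grm7 4 each and Cacna1a 3. The listed Fgf14, Grik2 and Fgf12 had none, of which Fgf14 and Fgf12 are not channels or receptors themselves. The ion channel Asic2, with 11 regions, was not in this list. Fragile site genes, which break under replication stress and had a median length of 1223 kb, had 0.297 (0.237 to 0.367), with 20 of 23 holding a region (87.0%). All genes over 1000 kb had 0.246. Magi2 led with 11, Rad51b had 7, Magi1, Wwox and Immp2l had 6 each, and Naaladl2, Il1rapl1 and Gphn had none.

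**Figure D4:**
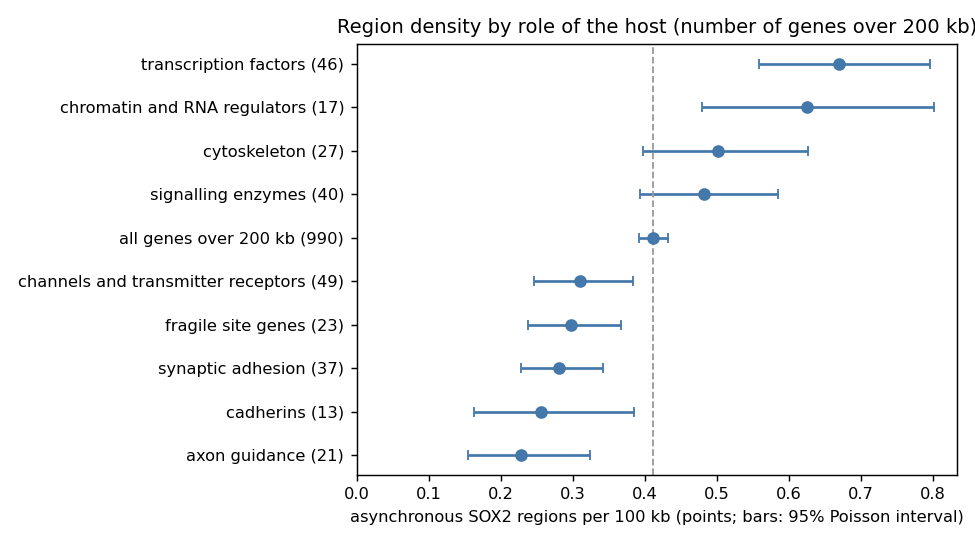
Asynchronous SOX2 regions per 100 kb (points, with 95% Poisson intervals) in very long genes grouped by role, with the number of genes in brackets; the dashed line is the value of all 990 genes. Transcription factors are at 0.669 and axon guidance genes at 0.228 regions per 100 kb. The lists were chosen with earlier results of these data known.

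Mitotic cells had 9 regions inside very long genes, in 8 hosts. They were 10.7% of the 84 mitotic regions (exact 95% interval 5.02 to 19.4%), while 16.6% of asynchronous regions were in such genes, a value within that interval. The 8 hosts were 0.808% of the 990 genes, beside 0.228% of all protein-coding genes with a mitotic region inside. Per 10 Mb there were 0.216 mitotic regions (0.0987 to 0.410) in genes over 200 kb and 0.731 (0.527 to 0.989) in shorter ones. No mitotic region lay in a gene over 1000 kb. The upper 95% Poisson limit there was 0.466 per 10 Mb, above the 0.216, so a lower density was not detectable. The name of the mitotic list carries a tag read as a q-value limit of 0.05, and that of the asynchronous list one read as 0.01. The part of this difference in the counts was not tested.

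None of the 1718 asynchronous regions overlapped a mitotic one, where a count of 0 allows up to 0.175%. Over all 10351 regions 9 did (0.0869%), a share below that limit, so a lower share in very long genes was not detectable. The nearest approach was in Mical3, an actin-oxidising enzyme. Its mitotic region at chromosome 6, 121060354 to 121060517, lay 3.78 kb from the asynchronous region at 121064296 to 121064890, the one that covered the start of Gm4651. A second mitotic region in Mical3, at 121130874 to 121131029, lay 66.0 kb from the same asynchronous region. Mical3 was the only gene over 200 kb with 2 mitotic regions.

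In Pard3, a cell polarity scaffold, the mitotic region at chromosome 8, 127440331 to 127440458, lay 15.4 kb from the nearer of the gene's 2 asynchronous regions. In Mylk, the myosin light chain kinase, and Fras1, an extracellular matrix protein, the distances were 24.2 and 36.6 kb. Sbf2, a myotubularin relative, held its mitotic region at chromosome 7, 110583897 to 110584001, near one end and its 1 asynchronous region near the other, and the nearest asynchronous region lay outside the gene, 163 kb away. Lrfn5, a synaptic adhesion protein, Fam135b and Dnah8, an axonemal dynein, had a mitotic region and no asynchronous one. That in Lrfn5, at chromosome 12, 61583000 to 61583164, was 1445 kb from any asynchronous region. The 9 regions were 105 to 216 bp wide, with a median of 156 bp, and lay a median of 66.0 kb from an asynchronous region. The other 75 mitotic regions had medians of 122 bp and 28.3 kb.

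**Figure D5:**
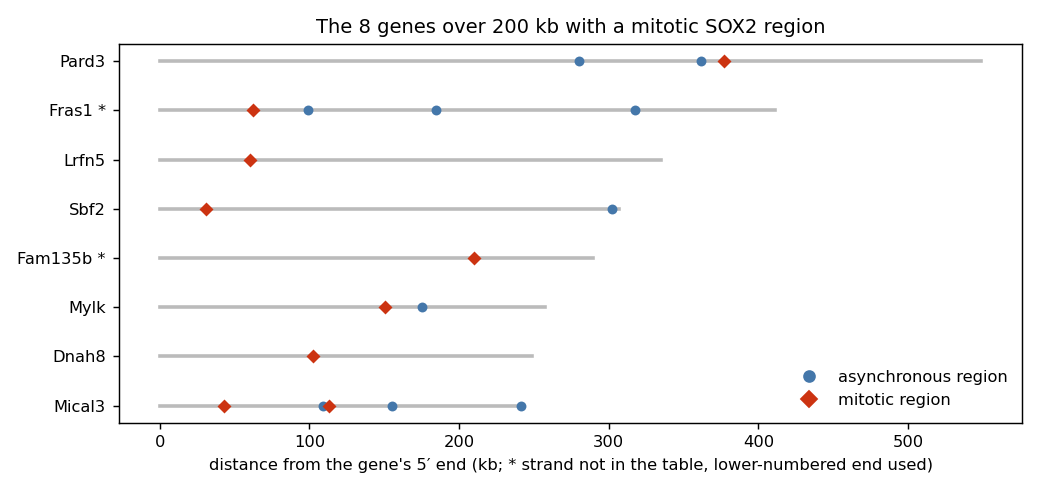
Positions of mitotic (red diamonds) and asynchronous (blue points) SOX2 regions along the 8 genes over 200 kb that held a mitotic region (grey lines), in kb from the 5′ end or, with an asterisk, from the lower-numbered end. No mitotic region overlaps an asynchronous one, and 3 of the 8 genes have mitotic regions alone.

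At the edges of the rule, Plcxd3, Pcbp3 and Pbx3 (200.1 to 200.6 kb) were just long enough and held 0, 1 and 2 regions. Atp9b, Sergef and Morc1 (199.7 to 199.9 kb) were just too short and held 0, 1 and 4. The regions nearest to the 1 kb limit were in Map2 at 1.05 kb from an end and, just left out, in Atg10 at 0.996 kb.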

How the data were processed

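The 2 peak lists used here are of asynchronous and mitotic E14 cells. The submitters' processing notes name Bowtie2 (2.2.1), MACS2 and the build mm10; the MACS2 version is not given in the sources used here. Names in the deposited files state ChIP against input over 3 replicates, with blacklisted regions left out. The files as deposited by the authors give only names, starts and ends in bp (unit other), with no value per replicate.

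Starts were converted to count from 1. Of 10532 asynchronous entries, 181 repeated the coordinates of another and were merged; the mitotic list had 84. Midpoints were placed in RefSeq gene spans with numpy 2.4.6 and pandas 2.3.3 and checked on simulated positions. Density is regions divided by host length more than 1 kb from any protein-coding gene end, with exact Poisson intervals, and shares have Clopper-Pearson intervals, both at 95%, from scipy 1.17.1. Genes were matched by symbol, all 330 listed ones. Region sequences outside promoter windows were not used here. No comparison between groups was tested.

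Named genes are the 20 hosts with the most regions, the 10 densest with at least 3, the 10 longest genes, all hosts of mitotic regions, hosts of the 10 widest regions and of the 3 closest pairs, and up to 6 leading and 3 empty members of each of 9 lists. Hosts of promoter overlaps, genes over 1000 kb without a region, genes at the edges of the rule and the composite motif were picked later, with their values known. A few genes that this rule names are not reported here. The members and lists were chosen with earlier results of these data known. Alternatives changed the host length, the margin, the overlap and the width of regions.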

Additional observations from a re-analysis of the deposited data

How the results depend on the processing

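Of 61 recomputed values over 8 results, 52 stayed within 1.5 times the count, or within the interval or spread of the value reported. Some of the 52 could not move, since an overlap count of 0 stays 0 in any subset of the regions. The median width counted as within its spread even at 387 bp, against 295 bp, when only wider regions were kept. Keeping only regions wider than the median of their list, which shortens the list by construction, left 885 regions, 0.212 per 100 kb and 48.9% of genes with one, and 0.281 and 0.140 per 100 kb in genes of 200 to 300 kb and over 1000 kb, in the same order. Genes over 300 kb had 0.373 regions per 100 kb, 73.6% with a region and 4 mitotic regions; of genes over 150 kb, 62.1% had a region. Autosomes alone, an alternative added with the width setting of the 2 classes after the data were seen, gave 0.552 and 0.260. No asynchronous region in these genes overlapped a mitotic one under any overlap setting, within 500 bp included. No paired analysis was possible because each list was called on pooled replicates, and no replicate could be left out. Depth is unknown, and it limits how many regions were found in either list.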
